A study of Capra hircus with 3 samples.

Results

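Macrophages and their relatives of the myeloid lineage were followed through 10 marker genes, CSF1, CSF1R, SPI1, TYROBP, ITGAM, CD14, CD163, MRC1, CD68 and AIF1, in mammary gland of Laoshan dairy goats at 3 stages of lactation. The markers were chosen by gene symbol, and the deposited loci were joined to symbols through goat NCBI gene IDs. Of the 10, 9 were matched to 1 locus each, among 14666 gene IDs and 13023 protein-coding genes with deposited values. CD163, the haemoglobin scavenger receptor, was not matched by symbol in the gene table and was not analysed here.

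The goats were 4 years old and in the third lactation, with free access to food and water and natural light. Tissue was taken by surgery under general anaesthesia 10 days (early lactation), 90 days (peak lactation) and 210 days (late lactation) after parturition. As the methods of the study read, the same 5 goats gave tissue at each stage, so the libraries share goats and later samples followed earlier surgery. The RNA of 5 goats was mixed in equal parts into 1 library per stage, so the spread between goats cannot be estimated, no test was possible, and no p-value is given. Values are the FPKM deposited by the authors, that is, fragments normalized to transcript length and to mapped reads, and the read numbers behind each value are unknown.

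The 3 libraries are called the early, peak and late library after their labels, and values given as a series of 3 are in that order. For annotated lncRNA genes also listed in the study's supplementary table, levels of its L library ran more closely with the column labelled peak lactation, and those of its P library with the column labelled late lactation. The study also reported more mRNA transcripts up than down in late lactation. In the columns used here, more protein-coding genes were at least 2-fold lower than higher in the library labelled late, against either other library. Whether these columns are exchanged was not settled, and an exchange would swap the peak and late values of every gene given here. Genes of mammary epithelium checked the tissue: CSN1S1, a casein gene, had 25057 FPKM in the early library, 12017 in the peak and 39445 in the late library. The values of KRT8, a keratin of luminal cells, were 125.9, 195.8 and 154.1 FPKM in the same order. A value of 0 is given only as listed, because even LALBA, which encodes a major whey protein, had 70053 FPKM in the early library and a listed 0 in the late library.

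Macrophages reside among the ducts and alveoli of the mammary gland, where they take up dying cells and milk debris and take part in remodelling of the tissue. Their growth and survival depend on colony stimulating factor 1 (CSF1), which binds the receptor tyrosine kinase CSF1R, and their identity depends on the transcription factor PU.1, encoded by SPI1. At the surface they carry receptors for microbes, sugars and debris, many of which signal through small adaptors with an immunoreceptor tyrosine-based activation motif (ITAM), such as TYROBP.

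The 9 measured markers were highest in the peak library, intermediate in the early library and lowest in the late library. Their summed level was 94.4 FPKM in the early library, 133.7 in the peak library and 54.8 in the late library. This order, shown by 9 of 9 markers, was also that of 30.3% of 12764 protein-coding genes above 0 in every library. For ITGAM and CD14 the first place was a tie in practice, since the early and peak libraries differed by a log2 ratio of 0.00 and 0.01. A lower FPKM in tissue RNA can come from fewer cells of a type or from less RNA per cell. As FPKM are relative to mapped reads, it can also come from more reads of other genes. These sources cannot be told apart here.

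**Figure D1:**
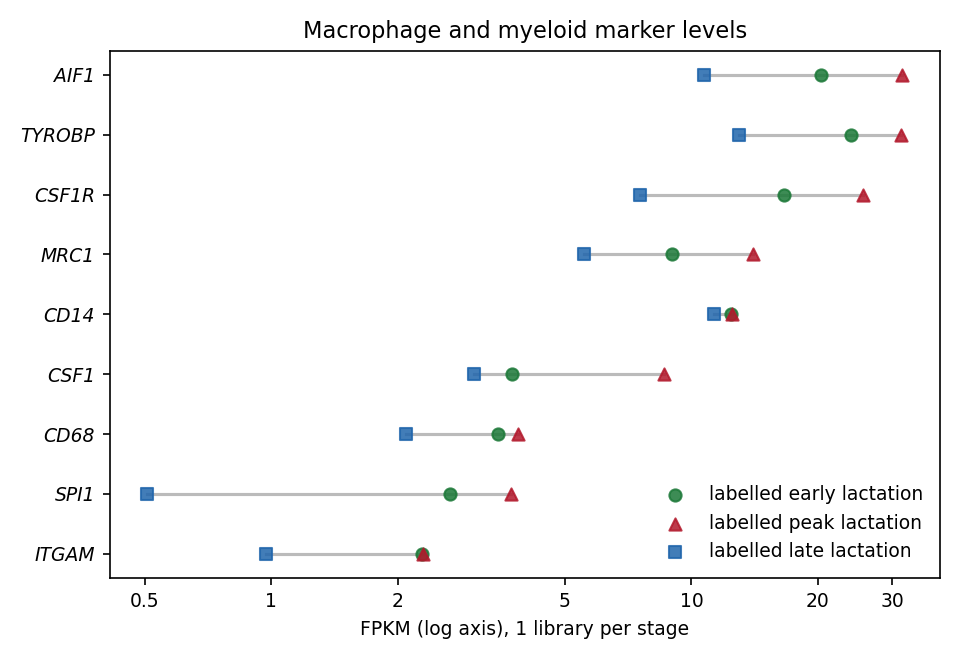
FPKM (log axis) of the 9 measured markers in the early (circles), peak (triangles) and late (squares) libraries, 1 library per stage, with no error bars because there are no replicates. The square is the lowest point in each row, from 0.508 FPKM for SPI1 to 13.0 FPKM for TYROBP, while the points of CD14 nearly coincide.

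The growth factor and its receptor differed in their pattern. CSF1, listed on scaffold NW_005100636.1 from 10596019 to 10615375, had 3.74 FPKM in the early library, 8.60 in the peak library and 3.04 in the late library. It was thus high in 1 library, with a fold of 2.30 of peak over early lactation and a log2 ratio of -0.30 of late over early lactation. CSF1R, on scaffold NW_005100721.1 from 19002447 to 19034198, had 16.6, 25.6 and 7.55 FPKM in the early, peak and late libraries. The receptor was therefore low in the late library against both others, with log2 ratios of -1.14 over early and -1.76 over peak lactation. IL34, the other ligand of CSF1R, had 12.2, 15.6 and 7.20 FPKM in the same order and lay above CSF1 in the early, peak and late libraries on this scale per transcript length.

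SPI1, which encodes PU.1, had the widest range of the markers. It is listed on scaffold NW_005100830.1 from 6671749 to 6688117 and had 2.67, 3.72 and 0.508 FPKM in the early, peak and late libraries. Of the protein-coding genes above 0, 4.52% were lower than SPI1 in the late library and 28.5% in the peak library. The fold of peak over late lactation was 7.32 and that of early over late lactation 5.26, and the reads behind 0.508 FPKM are unknown.

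TYROBP, the ITAM adaptor of several activating myeloid receptors, was listed on scaffold NW_005100869.1 from 15089371 to 15092252. It had 24.0, 31.5 and 13.0 FPKM in the early, peak and late libraries, a log2 ratio of -1.28 of late over peak and -0.89 of late over early lactation. It was the most abundant marker in the early and late libraries and stood next to AIF1 in the peak library, above 91.8% of protein-coding genes there and 69.5% in the late library. ITGAM, the alpha chain of the complement receptor integrin of myeloid cells, lies on scaffold NW_005100934.1 from 24877654 to 24921296 and was the least abundant marker in the early and peak libraries. It had 2.29 FPKM in each of these and 0.973 in the late library, a log2 ratio of -1.24 against either.

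Among the receptors, CD14 stood apart from MRC1. CD14, the co-receptor for bacterial lipopolysaccharide, on scaffold NW_005100721.1 from 9329887 to 9333066, had 12.4, 12.5 and 11.3 FPKM in the early, peak and late libraries. Its log2 ratio of late over peak lactation was -0.14, the smallest of the 9 in size, so that it stood in rank 5 among the markers in the peak library and rank 2 in the late library. MRC1, the mannose receptor of tissue macrophages, on scaffold NW_005100800.1 from 21894560 to 22007700, had 8.98, 14.0 and 5.56 FPKM. Its log2 ratio was 0.64 of peak over early and -1.33 of late over peak lactation.

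AIF1, an actin-binding protein of activated macrophages, on scaffold NW_005100920.1 from 330040 to 332456, had 20.3, 31.7 and 10.7 FPKM in the early, peak and late libraries. Its log2 ratios of 0.64 for peak over early and -1.56 for late over peak lactation were close to those of CSF1R. CD68, a glycoprotein of macrophage lysosomes, had 3.47, 3.88 and 2.10 FPKM, a log2 ratio of -0.89 of late over peak lactation. Its locus, on scaffold NW_005100886.1 from 3099143 to 3107571, was also listed for EIF4A1, a translation initiation factor with 164.2, 110.2 and 140.3 FPKM, and how reads were shared between these genes is unknown, so the CD68 values are uncertain.

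Between the early and peak libraries, 1 of the 9 markers, CSF1, was at least 2-fold higher in the peak library and 0 were at least 2-fold lower. Among protein-coding genes above 0 in either library, 10.9% were at least 2-fold higher and 6.8% lower. The median log2 ratio of the markers was 0.48, against 0.01 for all protein-coding genes, with a range from 0.00 for ITGAM to 1.20 for CSF1. This count depended on the scaling. FPKM were also rescaled to an equal sum over protein-coding genes outside the milk synthesis list. Of 10 genes on that list 8 were measured, while CSN1S2 and CSN2 were not matched by symbol. Whether reads of other milk genes remained in the sum was not tested. With the rescaling, log2 ratios of all genes shifted up by 0.52, and 5 markers were at least 2-fold higher, namely CSF1, MRC1, AIF1, CSF1R and SPI1. Such a shift raises the share of all protein-coding genes called as well. Before it, 7.30% of them had a log2 ratio from 0.5 to 0.75 and 5.50% from 0.75 to 1. The full share after rescaling was not computed.

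Between the early and late libraries, SPI1, ITGAM and CSF1R, 3 of the 9 markers, were at least 2-fold lower in the late library, and 0 were higher. Among all protein-coding genes, 6.74% were at least 2-fold lower and 1.97% higher. The median log2 ratio of the markers was -0.89 and that of protein-coding genes -0.03. Of the 3 markers, only CSF1R had at least 1 FPKM in both libraries.

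Between the peak and late libraries, 7 of the 9 markers were at least 2-fold lower in the late library, and the exceptions were CD68 and CD14. Among all protein-coding genes 17.4% were lower by that measure and 8.56% higher. The markers had a median log2 ratio of -1.33, with a range from -2.87 for SPI1 to -0.14 for CD14, while the median of protein-coding genes was -0.03. If the columns labelled peak and late lactation are exchanged, the same 7 markers are at least 2-fold higher in late lactation and their median log2 ratio is 1.33. Each of the 3 libraries enters 2 of these comparisons, which are therefore not separate pieces of evidence.

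**Figure D2:**
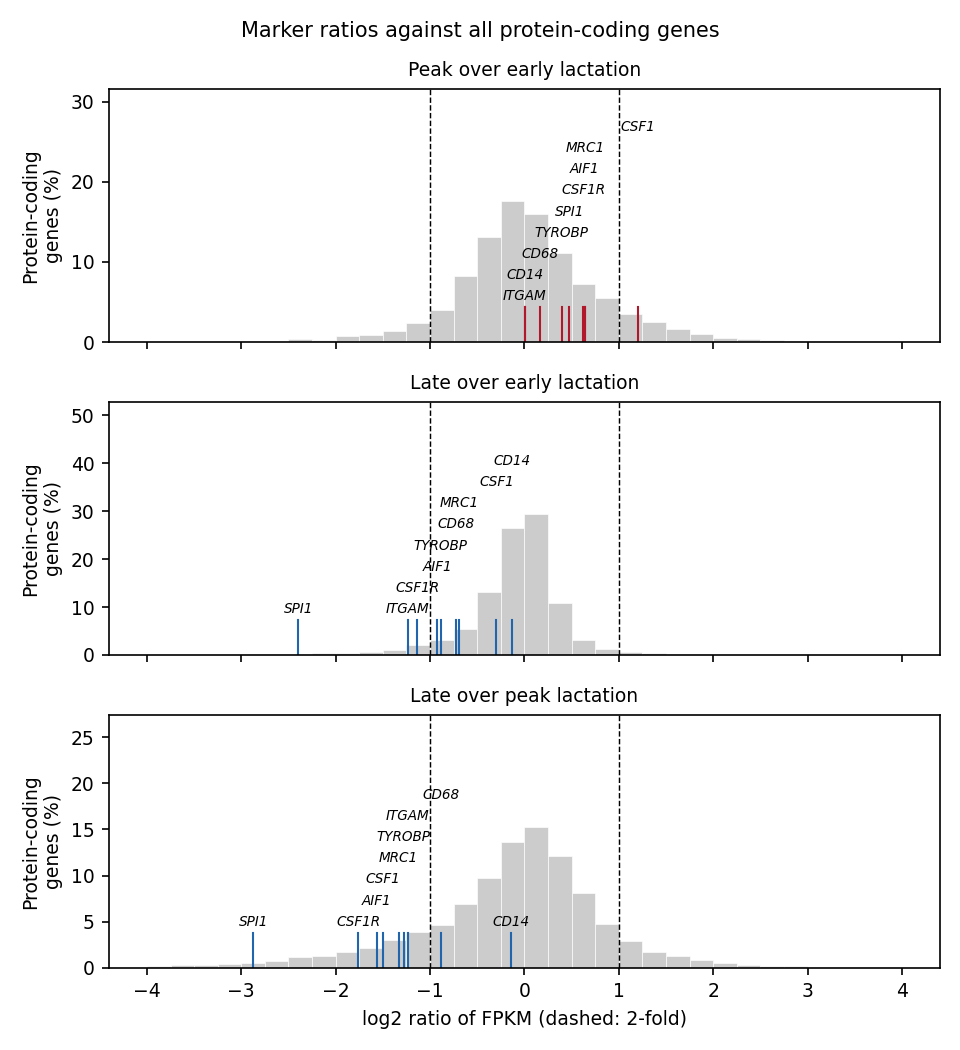
Log2 ratios of FPKM of the 9 markers (coloured ticks with names) over the distribution of all protein-coding genes above 0 in both libraries (grey bars, percent of genes), for each pair of libraries, with dashed lines at 2-fold. In the lowest panel, late over peak lactation by label, 7 ticks lie left of the 2-fold line, and that of CD14 at -0.14 lies near the middle of the distribution.

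Other genes of macrophages gave a like picture. Of 24 further macrophage genes listed, 15 were measured, and 13 of these were at least 2-fold lower in the late library than in the peak library, with 0 higher and a median log2 ratio of -1.79. The shares of all protein-coding genes, 17.4% lower and 8.56% higher, stand beside this count and those of the lists below for late over peak lactation. C1QA, a chain of complement C1q that tissue macrophages make, had 58.5, 107.0 and 28.4 FPKM in the early, peak and late libraries. CTSS, a lysosomal protease of antigen-presenting cells, had 52.0, 75.9 and 22.7 FPKM. LST1 had the strongest ratio of late over peak lactation among genes with at least 1 FPKM throughout, with 2.45, 6.55 and 1.12 FPKM. The scavenger receptor MSR1 was an exception, with 9.95, 6.64 and 6.45 FPKM, so that it was highest in the early library. TREM2, a lipid receptor that signals through TYROBP, had 2.07, 3.58 and 0.848 FPKM.

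Genes listed for CSF1 receptor signalling were mixed. The list is wider than the pathway from CSF1R into the cell, as it also holds the ligand IL34 and the GM-CSF receptor chains CSF2RA and CSF2RB. IL34 and CSF2RA were among those at least 2-fold lower, with log2 ratios of -1.11 and -1.37 of late over peak lactation. Apart from CSF1 and CSF1R, 17 genes were measured, of which 7 were at least 2-fold lower in the late than in the peak library, 1 was higher and 9 were neither, with a median log2 ratio of -0.37. INPP5D, a lipid phosphatase of blood cells that restrains receptor signals, had 4.03, 10.9 and 2.08 FPKM in the early, peak and late libraries. PTPN6, a tyrosine phosphatase, had 25.7, 23.8 and 25.1 FPKM. CSF2RB, the shared beta chain of the receptors for GM-CSF and related cytokines, was the gene at least 2-fold higher, with 200.1, 65.8 and 206.4 FPKM.

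Among ITAM adaptors and their partners other than TYROBP, 9 genes were measured, of which 6 were at least 2-fold lower in the late than in the peak library and 0 higher. FCER1G, the ITAM chain shared by Fc receptors, had 2.86, 2.83 and 1.03 FPKM in the early, peak and late libraries. SYK, the kinase that binds phosphorylated ITAMs, differed little, at 9.89, 9.25 and 8.84 FPKM. LCP2, an adaptor protein, was highest in the late library, with 12.8, 11.8 and 15.6 FPKM. BLNK, an adaptor best known from B cells, had the strongest ratio of late over peak lactation among these genes, with 3.46, 10.8 and 2.07 FPKM.

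Transcription factors of myeloid cells other than SPI1 were also mostly lower in the late than in the peak library. Of 13 measured, 8 were at least 2-fold lower by this comparison and 0 higher, GFI1 being listed at 0 in the late library. Against the early library, 4 were at least 2-fold lower in the late library, 0 higher and 9 neither. The median log2 ratio of late over early lactation was -0.36. IRF8, a partner of PU.1, had 10.3, 15.8 and 5.03 FPKM in the early, peak and late libraries. IKZF1, a zinc finger factor of blood cell development, had 5.38, 13.0 and 2.44 FPKM. CEBPA, which is also expressed in epithelium and fat, differed from these, with 17.9, 12.6 and 17.4 FPKM.

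Around ITGAM, the beta2 integrins and their adaptors gave 4 of 10 genes at least 2-fold lower in the late than in the peak library and 0 higher, with a median log2 ratio of -0.70. ITGB2, the beta chain that pairs with ITGAM, had 11.3, 14.5 and 9.07 FPKM in the early, peak and late libraries, a log2 ratio of -0.67 of late over peak lactation. ICAM1, a ligand of these integrins, had 5.70, 18.3 and 3.25 FPKM. TLN1 and RAP1B, which act on integrins in many cell types, had 41.4, 51.2 and 45.6 FPKM and 78.1, 58.3 and 72.8 FPKM, respectively.

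The genes that recognise lipopolysaccharide together with CD14 lay near a ratio of 1. Of 12 measured, 1 was at least 2-fold lower in the late than in the peak library, 0 were higher, and the median log2 ratio was 0.11, which turned to -0.39 when FPKM were rescaled outside the milk synthesis list. TLR4, the signalling receptor, had 13.2, 9.69 and 15.7 FPKM in the early, peak and late libraries, and its binding partner LY96 had 35.2, 28.0 and 30.4 FPKM. LBP, which hands lipopolysaccharide to CD14, had 18.7, 9.62 and 11.6 FPKM. TLR2, a receptor for bacterial lipoproteins, had 27.2, 17.3 and 27.9 FPKM, while TIRAP had 4.76, 4.60 and 4.41 FPKM.

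Of 12 genes listed for haemoglobin uptake and haem iron, CD163 among them, 8 were measured. In the late library, 2 of these were at least 2-fold lower than in the peak library, near the 17.4% of all protein-coding genes. HMOX1, which opens the haem ring, had 4.32, 7.75 and 2.71 FPKM in the early, peak and late libraries. LRP1, an endocytic receptor that also takes up haem bound to haemopexin, had 33.1, 67.3 and 29.1 FPKM. TFRC, the transferrin receptor, was the one at least 2-fold higher, with 43.7, 20.4 and 41.1 FPKM.

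Relatives of MRC1 and other C-type lectins gave 6 of 8 genes at least 2-fold lower in the late than in the peak library and 0 higher, with a median log2 ratio of -1.88. PLA2R1, of the same receptor family, had 5.41, 9.52 and 2.45 FPKM in the early, peak and late libraries, and MRC2, found mainly on fibroblasts, had 8.92, 14.0 and 7.50 FPKM. CLEC1A, a lectin of endothelium, had 3.68, 3.26 and 2.76 FPKM.

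**Figure D3:**
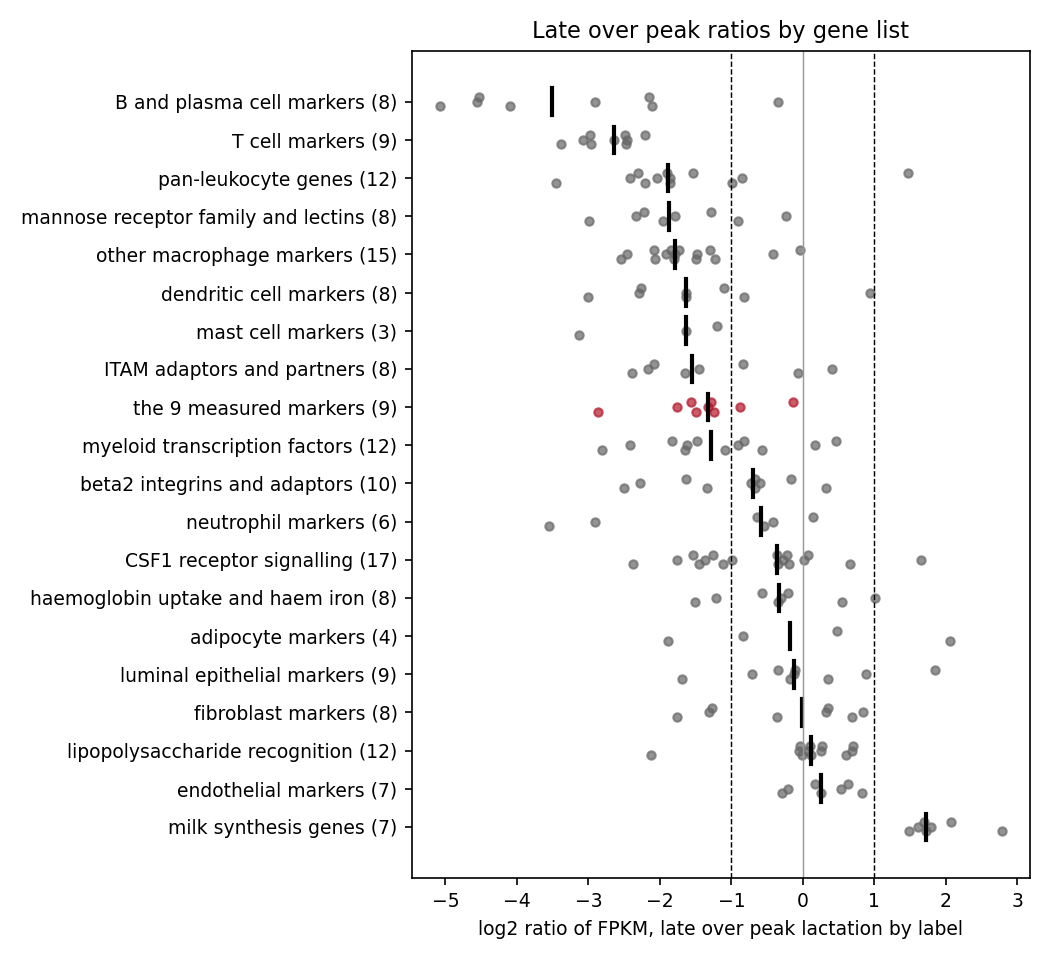
Log2 ratio of FPKM of late over peak lactation by label for each gene of the lists (points, genes above 0 in both libraries, number in brackets), with the median of a list as a black bar, dashed lines at 2-fold and the 9 markers in red. The medians run from -3.50 for B and plasma cell markers to 1.71 for milk synthesis genes, and the markers lie between, at -1.33.

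Lists of markers of other leukocytes also had their highest summed level in the peak library, and their part in these results was not tested. The lowest sum was in the late library, except for B and plasma cell markers, whose sum was lowest in the early library. The summed level of T cell markers was 31.8, 80.2 and 13.8 FPKM in the early, peak and late libraries, and 9 of 10 were at least 2-fold lower in that labelled late than in the peak library. CD3E was the other, listed at 0 in the early and peak libraries and at 1.43 FPKM in the late library. Of B and plasma cell markers, 7 of 8 were at least 2-fold lower, with a summed level of 289.8, 520.2 and 352.6 FPKM that was mostly JCHAIN, the joining chain of secreted antibodies, at 266.2, 428.7 and 336.7 FPKM. The 12 measured pan-leukocyte genes had a summed level of 160.7, 250.9 and 102.7 FPKM, with 9 at least 2-fold lower and NCF4 higher. Among 7 measured neutrophil markers, 3 were at least 2-fold lower, including S100A8, listed at 0 in the late library, and the summed level was 18.0, 30.6 and 8.76 FPKM, while CSF3R, the receptor for granulocyte colony stimulating factor, had 2.47, 2.44 and 2.70 FPKM. Dendritic cell markers were at least 2-fold lower in 7 of 9, with FLT3 listed at 0 in the late library and a summed level of 20.7, 35.3 and 16.1 FPKM. Of 7 mast cell genes listed, 3 were measured and each was at least 2-fold lower, with a summed level of 5.32, 15.1 and 3.03 FPKM.

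Lists for cells other than leukocytes were mixed. Of 10 milk synthesis genes listed, 8 were measured, and 7 of these were at least 2-fold higher in the late than in the peak library. LALBA was the exception with its listed 0, and the median log2 ratio over genes above 0 was 1.71. Endothelial markers were at least 2-fold apart in 0 of 7, with PECAM1 at 47.4, 46.9 and 38.1 FPKM. Of 9 luminal epithelial markers, 1 was at least 2-fold higher, 1 was lower and the median log2 ratio was -0.13. The higher was ELF5, a transcription factor of milk-producing cells, at 879.2, 243.5 and 875.4 FPKM, and the lower was KRT7, a keratin, at 76.6, 157.0 and 48.6 FPKM in the order of the macrophage markers. Fibroblast markers had a median log2 ratio of -0.02, but 3 of 8 were at least 2-fold lower in the late than in the peak library and 0 higher. These were FBLN1, DCN and PDGFRA, proteins of the extracellular matrix and a growth factor receptor, with log2 ratios of -1.76, -1.27 and -1.31, and they too were highest in the peak and lowest in the late library. The part of epithelium and fibroblasts in the results for the macrophage markers was not tested. Adipocyte genes were measured for 4 of 6, of which 1 was at least 2-fold higher and 1 lower, and erythrocyte genes for 1 of 6, EPB42, at 0.225, 1.32 and 0.771 FPKM.

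Set against PTPRC, which encodes the CD45 protein found on leukocytes in general, the macrophage markers stood in another order of libraries. PTPRC itself had 17.6, 39.9 and 8.08 FPKM in the early, peak and late libraries, a log2 ratio of -2.30 of late over peak lactation, farther from 0 than that of each marker but SPI1. The summed level of the 9 markers was 5.36 times that of PTPRC in the early library, 3.35 times in the peak library and 6.78 times in the late library. CD14 varied most in this measure among the markers that were highest in the late library, at 0.704, 0.314 and 1.40 times PTPRC. TYROBP stood at 1.36, 0.789 and 1.60 times PTPRC, and CSF1R at 0.941, 0.642 and 0.934 times, equal in the early and late libraries to within a log2 ratio of -0.01. SPI1 went the other way, at 0.151, 0.0932 and 0.0628 times PTPRC. The comparison with PTPRC was chosen after values had been seen, and as the denominator is 1 gene in 1 library, its error is unknown. It also depends on the denominator. The summed level of the 12 measured pan-leukocyte genes had a fold of 0.409 of late over peak lactation, as did that of the markers. That sum includes NCF4, at 39.7, 14.0 and 39.0 FPKM. By median log2 ratio, the pan-leukocyte genes stood at -1.88 and the markers at -1.33.

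**Figure D4:**
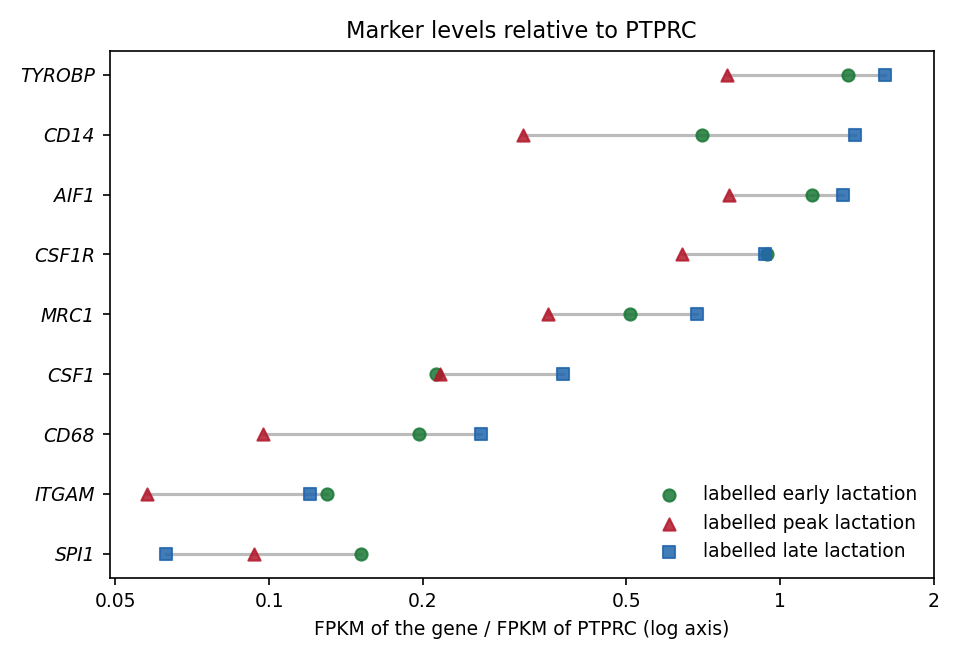
FPKM of each marker divided by that of PTPRC (log axis) in the early (circles), peak (triangles) and late (squares) libraries, 1 library per stage. The triangle is the lowest point for 7 markers, while SPI1 is lowest at the square, 0.0628, and CSF1 at the circle, 0.212.

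The markers have neighbours that are also genes of leukocytes, and these were looked at after the values of the markers had been seen. ITGAX, the alpha chain of a related integrin, is listed 15787 bases from ITGAM with no other gene ID between, and had 1.02, 1.44 and 0.466 FPKM in the early, peak and late libraries. HCST, another small adaptor of activating receptors, lies 104 bases from TYROBP and was listed at 0, 1.95 and 0 FPKM. PDGFRB, the receptor of platelet-derived growth factor related to CSF1R in sequence, lies 55410 bases from CSF1R and had 16.6, 24.6 and 19.2 FPKM, so that its late value lay between the others while that of CSF1R was the lowest. HMGXB3, 127 bases from CSF1R on the other side, had 7.51, 8.26 and 7.94 FPKM. Over 19 neighbouring loci with a gene ID and a value above 0 in the peak and late libraries, 5 were at least 2-fold lower in the late library, 1 was higher and the median log2 ratio was -0.13. These counts lay near the shares of all protein-coding genes, 17.4% lower and 8.56% higher.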

How the data were processed

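Total RNA of mammary gland from 5 goats per stage was pooled into 1 library per stage by the authors, who trimmed reads with Trimmomatic, mapped them with TopHat2 2.0.9, built transcripts with Cufflinks 2.1.1 and Cuffmerge, removed small structural RNAs and pseudogenes found with Bowtie2, and estimated their abundance with Cuffdiff. What they deposited is 1 FPKM value per library for each of 50041 loci. Of the values with 7 significant digits, 95.7%, 99.3% and 97.3% ended in 5 in the early, peak and late libraries, as means of 2 values would. The sources used here do not explain it. Other per-sample columns numbered 0. Columns were assigned by the sample descriptions. Depth per locus is unknown, so no interval is given.

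Loci of one NCBI gene ID were summed, and IDs were joined to symbols through the RefSeq gene table of ARS1.2, used for names only: the study's methods name more than 1 goat genome reference, and which of them the scaffolds of the deposited loci belong to was not settled. Calls were made on ratios of at least 2-fold, after replacing a listed 0 by 0.001, with protein-coding genes above 0 in either library as background. Medians of the lists were taken over genes above 0 in both libraries, with the 9 markers left out of the other lists. The markers and lists were chosen with earlier results of these data known. Named were the markers and, per list, the 2 most abundant genes, those with the largest and smallest ratio of late over peak lactation at 1 FPKM or more throughout, and direct partners of a marker. Genes named beyond that rule were chosen after their values were seen, and some genes that the rule names are not reported here. The code for fold calling was checked on simulated data, with planted changes beyond the threshold and all other genes kept within it. As no noise of reads or goats was simulated, this cannot show how reliable the calls are. Python 3.11.15, numpy 2.4.6, pandas 2.3.3 and matplotlib 3.10.9 were used.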

Additional observations from a re-analysis of the deposited data

How the results depend on the processing

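The number of markers at least 2-fold apart was 1 for peak over early, 3 for late over early and 7 for late over peak lactation. At a fold of at least 4 these numbers were 0, 1 and 1. With at least 1 FPKM in both libraries, 1 marker was apart for late over early lactation. With FPKM rescaled outside the milk synthesis list, 5 were apart for peak over early lactation. The share of all protein-coding genes called was not computed at these changed settings. Pseudocounts of 0.1 and 1, centring on the median of protein-coding genes, taking the top locus of each gene, and leaving out CD68 (added after the data were seen) kept each number within 1.5 times. These settings and the rescaling also kept the sign of each marker's log2 ratio. With the peak and late columns exchanged, 3 markers were apart for peak over early and 1 for late over early lactation. It reversed called log2 ratios. CSF1 had -0.30 for peak over early lactation, and CSF1R, ITGAM and SPI1 had 0.62, 0.0025 and 0.48 for late over early lactation. For late over peak lactation the values were 1.76 for CSF1R, 1.50 for CSF1, 1.33 for MRC1, 1.56 for AIF1, 1.28 for TYROBP, 1.24 for ITGAM, 2.87 for SPI1 and 1.33 for the median. A fold of 4 and the FPKM limit call fewer genes by construction. Rescaling moves all log2 ratios of a comparison by the same amount, and the exchange only swaps the peak and late values. Their effects on the calls thus also follow from the settings. Why the sums outside the milk synthesis list differ between libraries was not tested. No paired analysis was possible because there is 1 library per stage, and no replicate could be left out.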

Other observations

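The genes of the myeloid lists at least 2-fold higher in the late than in the peak library included CSF2RB and NCF4, and this pair was examined after its values had been seen. They are neighbours on scaffold NW_005100670.1, where NCF4 is listed from 677626 to 695791 and CSF2RB from 755986 to 778378, with 60194 bases and 0 other gene IDs between them. CSF2RB had 200.1, 65.8 and 206.4 FPKM in the early, peak and late libraries, and NCF4, a subunit of the oxidase that phagocytes use to kill microbes, had 39.7, 14.0 and 39.0 FPKM. Their log2 ratios of late over peak lactation, 1.65 and 1.47, lay close to the median of 1.71 of the milk synthesis genes. Which cells express CSF2RB and NCF4 in this tissue was not tested.

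In the late library, 200 protein-coding genes were listed at 0, against 65 in the early and 24 in the peak library. For 4 of the 200, both other libraries had at least 5 FPKM. The study, which counted transcripts, gave the most mRNA transcripts for its L library and the fewest for its P library. How this relates to the column labels was not tested.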
